A study of Mus musculus with 2 samples.

Results

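The 10 genes described here encode the TGF-beta ligands (Tgfb1, Tgfb2, Tgfb3), their receptors (Tgfbr1, Tgfbr2, Tgfbr3) and the latent TGF-beta binding proteins (Ltbp1, Ltbp2, Ltbp3, Ltbp4). They were chosen by name out of the 29004 features of the deposited matrices, and all 10 were found and detected in both libraries. Whole lungs of mouse pups, taken at postnatal day 6 and dissociated to single cells, were profiled with a droplet kit that counts 3' ends of transcripts (10x Genomics), after Hedgehog ligands had been blocked with the antibody 5E1 (5E1 library) or a control IgG had been given (IgG library). Pups of both groups were Gli1CreERT2/+,R26RtdT/+, so the controls too carried 1 Gli1 allele with an inducible Cre recombinase and 1 allele of a tdTomato reporter. Both groups received tamoxifen at day 1 and antibody at day 3, each under the skin, and the lungs of 3 pups per group were pooled into 1 library. With 1 library per group no test between the groups could be made, so every interval below covers counting error only and no difference has a replicate check.

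TGF-beta is secreted as an inactive complex in which the ligand stays wrapped in its own propeptide. LTBP-1, LTBP-3 and, more weakly, LTBP-4 bind this complex covalently and anchor it to fibrillin microfibrils, whereas LTBP-2 does not bind the latent ligand and is known as a microfibril component. Release by integrins or proteases lets the ligand assemble the type II and type I receptors (Tgfbr2, Tgfbr1), which phosphorylate SMAD2 and SMAD3. Betaglycan, the product of Tgfbr3, is a co-receptor that presents ligand and is needed most for TGF-beta2. In the postnatal lung the pathway is known for its part in septum formation and elastic fibre assembly, and alveolar myofibroblasts are the contractile, elastin-making cells of the growing septum.

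Tgfb2 and Ltbp2, whose ratios among myofibroblast-like clusters are described in detail, are shown with the 300 bases around their transcription starts, 250 before and 50 after the start, from RefSeq on GRCm38.p6. Both genes are read from the minus strand, Tgfb2 between positions 186622792 and 186705989 of chromosome 1 and Ltbp2 between 84783212 and 84876532 of chromosome 12 (GRCm38). Capitals mark TATAAA, a core promoter motif. The windows are chr1:186705940-186706239 for Tgfb2 and chr12:84876442-84876741 for Ltbp2, printed 5′ to 3′ on the minus strand.
Tgfb2: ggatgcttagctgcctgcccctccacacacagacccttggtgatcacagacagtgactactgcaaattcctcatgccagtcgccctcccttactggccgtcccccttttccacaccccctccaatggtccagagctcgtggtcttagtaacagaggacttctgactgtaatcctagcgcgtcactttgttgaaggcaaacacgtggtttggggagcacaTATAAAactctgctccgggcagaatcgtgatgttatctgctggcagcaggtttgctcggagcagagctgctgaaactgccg
Ltbp2: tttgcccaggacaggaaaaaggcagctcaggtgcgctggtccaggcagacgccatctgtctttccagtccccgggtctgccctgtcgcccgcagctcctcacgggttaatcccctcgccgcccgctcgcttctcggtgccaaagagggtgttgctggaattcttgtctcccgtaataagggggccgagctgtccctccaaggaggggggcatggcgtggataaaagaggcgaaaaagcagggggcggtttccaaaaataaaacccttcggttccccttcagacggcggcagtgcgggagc

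Promoter windows were at hand for 8 of the 10 genes, 12 windows in all. On either strand TATAAA stood in the Tgfb2 window and in 13.6% of the 32851 windows of all genes. The cyclic AMP response element TGACGTCA stood in an Ltbp1 window and in 1.79% of all windows. Neither the GLI motif GACCACCCA, which 0.253% of all windows hold, nor the SMAD palindrome GTCTAGAC, which 0.213% hold, was found in the 12 windows, which says only that these letters are not there.

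The authors kept 9454 cells with 58890639 UMIs (unique molecules counted per gene and cell) in the 5E1 library and 13509 cells with 77436890 UMIs in the IgG library, with medians of 4636 and 4541 UMIs per cell. Their 23 clusters come without names, and clusters are called "like" a cell type here from marker genes, or left by number where the markers are mixed or few. Hedgehog targets were lower in the 5E1 library in the myofibroblast-like and main matrix fibroblast-like clusters: Ptch1, the Hedgehog receptor and pathway target, was at 7.34 CPM (counts per 1000000 UMIs of the library's cells in the cluster) in 5E1 and 80.5 CPM in IgG in cluster 23, and at 21.5 and 97.9 CPM in cluster 19. Mesenchymal clusters held 38.3% of 5E1 cells and 51.4% of IgG cells, and fewer cells of a type and fewer cells surviving dissociation cannot be told apart. The pups pooled differed in sex between the libraries: 24.2% of 5E1 cells and 91.5% of IgG cells had an Xist UMI and no UMI of a Y-linked gene, so the antibody and the sex of the pups cannot be told apart by group alone. Of the barcodes kept, 184 occurred in both libraries.

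**Figure D1:**
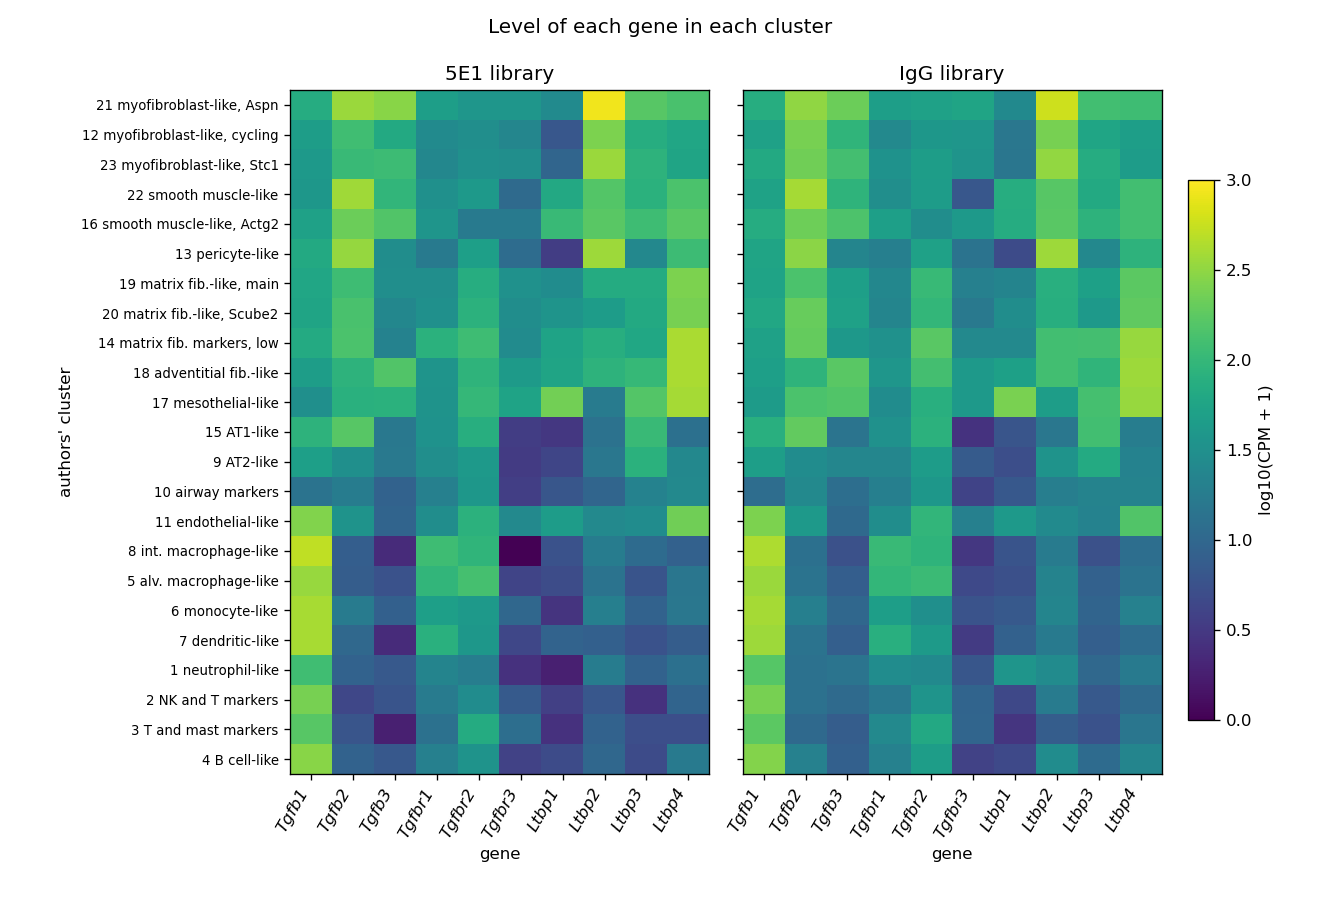
Level of each of the 10 genes (columns) in each of the authors' 23 clusters (rows), as log10(CPM + 1), in the 5E1 library (left) and the IgG library (right). In both libraries Tgfb1 is brightest in the immune and endothelial rows, and Ltbp4 in the fibroblast, mesothelial and endothelial rows. Tgfb2 is brightest in the larger smooth muscle, cluster 21 and pericyte rows, and Ltbp2 in the myofibroblast and pericyte rows. Tgfb3 is brightest in the cluster 21 row, followed by the adventitial fibroblast row, and is low in the pericyte row (28.9 CPM in 5E1 and 21.9 CPM in IgG).

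Each ligand had its own distribution over the lung, and each was led by the same cluster in both libraries. The number of 3' tags counted depends on the gene, so levels are compared here between clusters for 1 gene at a time and not between genes. Tgfb1, the ligand tied to immune regulation, was highest in interstitial macrophage-like cluster 8, at 510.2 CPM in 5E1 (95% interval 474 to 548) and 426 CPM in IgG (398 to 456). Monocyte-like cluster 6 followed with 407 and 392 CPM and dendritic-like cluster 7 with 402 and 367 CPM, and clusters 6 and 7 did not differ beyond counting error in either library. Endothelial-like cluster 11 had 270.4 CPM in 5E1 and 257 CPM in IgG, next to B cell-like cluster 4 at 289 and 278 CPM. In the 11 mesenchymal clusters Tgfb1 stayed between 29.9 and 70.6 CPM in 5E1 and between 43.1 and 72.9 CPM in IgG. Immune clusters held 50.0% of all Tgfb1 UMIs of the 5E1 library and 49.3% of those of the IgG library.

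Tgfb2, a ligand that needs betaglycan for efficient receptor binding, was a mesenchymal transcript. It was highest in the larger smooth muscle-like cluster 22 (373 CPM in 5E1 and 393 CPM in IgG), in Aspn-rich alveolar myofibroblast-like cluster 21 (353 and 317 CPM) and in pericyte-like cluster 13 (333 and 303 CPM). AT1-like cluster 15, the flat epithelial cells of gas exchange, was the only epithelial cluster near these levels, at 166 CPM in 5E1 (149.9 to 183) and 191 CPM in IgG (171 to 213), against 30.4 and 28.0 CPM in AT2-like cluster 9. B cell-like cluster 4, taken as a level of free RNA for mesenchymal genes, had 7.67 CPM in 5E1 and 19.7 CPM in IgG. The mesenchymal clusters held 76.8% of the Tgfb2 UMIs in 5E1 and 86.9% in IgG.

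Tgfb3 was also mesenchymal, with 87.1% of its UMIs in mesenchymal clusters in 5E1 and 90.8% in IgG. Cluster 21 led with 290.2 CPM in 5E1 (265 to 317) and 209 CPM in IgG (197 to 222), ahead of adventitial fibroblast-like cluster 18 at 153 and 171 CPM. Actg2-rich smooth muscle-like cluster 16 had 152 CPM in 5E1 and 143 CPM in IgG, not apart from cluster 18 in 5E1. No immune cluster passed 7.21 CPM in 5E1 or 13.4 CPM in IgG, and the B cell-like level was 5.75 and 7.29 CPM. After thinning each cell to 1000 UMIs, 23.3% of cluster 21 cells had a Tgfb3 UMI in 5E1 and 18.4% in IgG, against 0.704% and 0.533% of B cell-like cells. Before thinning these shares were 66.9% and 62.2% in cluster 21 and 1.64% and 2.11% in cluster 4, at median depths of 4022.5 and 4981.5 UMIs in cluster 21 and 3325 and 2498.5 UMIs in cluster 4.

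Both signalling receptors were found across compartments. Immune clusters held 39.5% of Tgfbr1 UMIs in 5E1 and 33.7% in IgG and mesenchymal clusters 30.1% and 44.6%, and mesenchymal clusters held 32.1% and 53.7% of Tgfbr2 UMIs. Tgfbr1, the type I receptor, was highest in macrophages: cluster 8 had 115 CPM in 5E1 and 106 CPM in IgG, alveolar macrophage-like cluster 5 had 92.1 and 95.3 CPM, and the dendritic-like cluster had 79.5 and 76.4 CPM. Tgfbr2, the type II receptor that binds ligand first, was at 131 CPM in 5E1 (120.1 to 143) and 109.8 CPM in IgG (97.8 to 123) in the alveolar macrophage-like cluster. In cluster 14, which has matrix fibroblast markers and low counts, it was at 115 CPM in 5E1 (17 UMIs) and 172 CPM in IgG (103 UMIs). It was also high in mesothelial-like cluster 17 (98.6 and 77.1 CPM), in adventitial fibroblast-like cluster 18 (89.5 and 127 CPM) and in endothelial-like cluster 11 (83.6 and 93.3 CPM). Tgfbr3, the co-receptor, was sparse in immune cells, with 0 UMIs in cluster 8 of 5E1, which by the limit of 3 counts allows a level of up to 2.04 CPM, and 4 UMIs in IgG. Among its highest levels were those of mesothelial-like cluster 17 (54.2 CPM in 5E1 and 40.9 CPM in IgG), cluster 21 (36.5 and 54.8 CPM) and cluster 18 (42.3 and 40.5 CPM), most of which did not differ from their neighbours in the order beyond counting error.

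The 4 binders were spread differently over the clusters. Ltbp1 was highest in the mesothelium, at 226 CPM in 5E1 (203 to 252) and 248 CPM in IgG (226 to 272) in cluster 17, and was at 64.3 and 73.1 CPM in smooth muscle-like cluster 22. Endothelial-like cluster 11 had 45.0 and 40.2 CPM of it and held 33.8% of all Ltbp1 UMIs in 5E1 and 19.5% in IgG. Ltbp2 was highest in the alveolar myofibroblast-like clusters and pericytes: cluster 21 had 862 and 589 CPM, pericyte-like cluster 13 had 365 and 362 CPM, and Stc1-rich myofibroblast-like cluster 23 had 356 and 328 CPM. After thinning, 53.7% of cluster 21 cells had an Ltbp2 UMI in 5E1 (48.5% to 58.8%) and 42.3% in IgG (39.2% to 45.5%), against 0.469% and 1.33% of B cell-like cells. Ltbp3 was broad, with 167 and 122 CPM in cluster 21, 158 and 129 CPM in cluster 17, and 108 and 122 CPM in AT1-like cluster 15. Ltbp4, known for elastic fibre assembly in the lung, was highest in adventitial fibroblast-like cluster 18 (415 and 360.2 CPM), in mesothelial-like cluster 17 (389.7 and 344 CPM) and in cluster 14 (420.1 and 344 CPM), whose intervals overlapped. Endothelial-like cluster 11 held 36.6% of all Ltbp4 UMIs in 5E1 and 19.3% in IgG, with levels of 222 and 152 CPM. That cluster made up 13.9% of 5E1 cells and 9.57% of IgG cells, so its shares of Ltbp1 and Ltbp4 UMIs also hold the difference in cell makeup.

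The mix of binders differed by cell type in a way that held in both libraries. Shares of UMIs within a family depend on how well each gene is captured, so only their change between clusters is read. Ltbp2 made up 72.5% of binder UMIs in cluster 21 of 5E1 and 69.1% in IgG, but 2.11% and 5.96% in mesothelial-like cluster 17. Ltbp4 made up 49.3% and 44.9% in cluster 17, against 11.3% and 13.6% in cluster 21.

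Genes with the most similar pattern over the 46 values of 23 clusters in 2 libraries are given as a description. The correlations are Pearson's r of log2(CPM + 1) among 9855 genes that reach 20 CPM, and the values share libraries, depth and free RNA. Tgfb1 was most like Nrros, Arpc3 and Arpc4 (r = 0.91 each). Nrros encodes the protein that tethers latent TGF-beta1 on macrophages and microglia, and was at 192 CPM in 5E1 and 189 CPM in IgG in cluster 8. Tgfb2 was most like the contractile genes Tpm1 and Cald1 (0.94 each) and Shisa4 (0.93), and Tgfb3 was most like Kdelr3 (0.92), Fstl1 (0.91) and Angptl2 (0.90). For Ltbp2 they were Hoxb2, Arhgap42 and Spon2 (0.94 each). For Ltbp4 they were the matrix gene Abi3bp (0.95), Antxr1 (0.93) and Meis2 (0.92), and for Ltbp3 they were Fzd2 (0.94), P3h4 and Bmp1 (0.93 each). Ltbp1 was most like Ptgis (0.88), Plpp1 and Dpysl3 (0.84 each). For the receptors they were the lysosomal genes Hexa (0.86), Grn (0.82) and Ctsb (0.81) for Tgfbr1, Reps2 (0.78), Fam168b (0.77) and Mon2 (0.76) for Tgfbr2, and Tshz3 (0.89), Hdgfrp3 (0.87) and Bace2 (0.86) for Tgfbr3. Between members, Tgfb2 had r = 0.86 with Ltbp3, 0.83 with Ltbp2 and 0.83 with Tgfb3, while Tgfb1 had r = -0.63 with Tgfb2 and -0.65 with Tgfb3.

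Between the libraries, most differences past 1.5-fold lay in mesenchymal clusters, the mesothelium counted among them, and were towards less transcript in 5E1. Of 144 pairs of a gene and a cluster with 100 or more UMIs over both libraries, 14 (9.72%) were at least 1.5-fold lower in 5E1 and 2 (1.39%) were at least 1.5-fold higher. Over all genes, 4.46% of 120916 pairs were at least 1.5-fold lower and 2.92% at least 1.5-fold higher. Of the 14 lower pairs, 6 belonged to the ligands Tgfb2 and Tgfb3, 5 to Ltbp2, 2 to Tgfbr3 and 1 to Tgfb1. In the mesenchymal clusters 11 of 90 pairs (12.2%) were lower and 2 (2.22%) higher, where 5.46% and 3.36% of all genes' pairs were, and in the other clusters 3 of 54 (5.56%) were lower and 0 higher, where 3.47% and 2.49% were. With cells limited to those with an Xist UMI and no Y-linked UMI, 30 of the 144 pairs (20.8%) were lower and 9 (6.25%) higher, where 10.4% and 5.19% of all genes' pairs were. That comparison rests on 2289 cells of 5E1 and 12366 cells of IgG, and how many pups they came from is not known. The median log2 ratio of 5E1 over IgG across the 144 pairs was 0.01, against -0.01 over all pairs. No pair of Tgfbr1, Tgfbr2, Ltbp1 or Ltbp4 passed 1.5-fold, although Ltbp1 in cluster 16 was just under it, with 107 CPM in 5E1 and 71.6 CPM in IgG (interval of the ratio 1.04 to 2.13). Without cells of at least 10 UMIs of the megakaryocyte gene Itga2b, a limit set after values were seen, that ratio was 1.55 (1.08 to 2.21), past 1.5-fold.

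**Figure D2:**
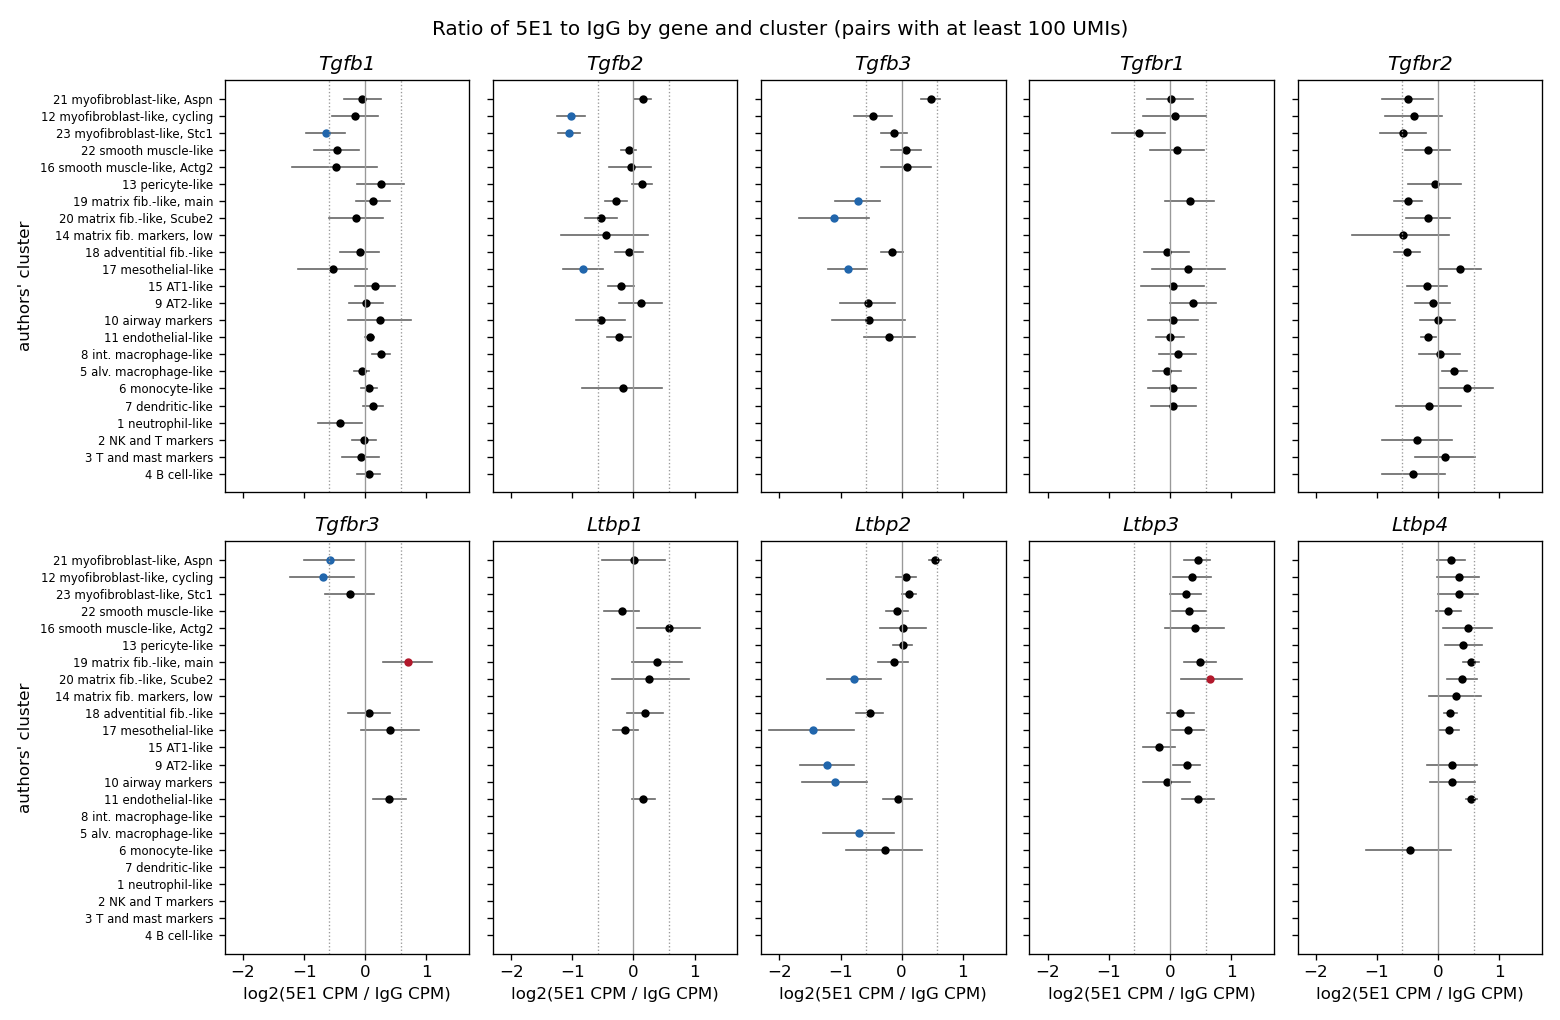
Ratio of 5E1 to IgG for each gene (panels) in each cluster (rows) on a log2 axis, with exact 95% intervals for counting error, for the 144 pairs with at least 100 UMIs. Dotted lines mark 1.5-fold, blue points the 14 pairs at least 1.5-fold lower in 5E1 and red points the 2 at least 1.5-fold higher.

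Tgfb2 was about 2-fold lower in the 5E1 library in both myofibroblast-like clusters outside cluster 21, and not lower within cluster 21. In cluster 23 it was at 107 CPM in 5E1 (378 UMIs) and 222 CPM in IgG (686 UMIs), 2.08-fold lower (95% interval 1.83 to 2.36). In cycling myofibroblast-like cluster 12 it was at 118 CPM in 5E1 (191 UMIs) and 239 CPM in IgG (1427 UMIs), 2.03-fold lower (1.74 to 2.37). The levels in cluster 12 were 15.4 times that of the B cell-like cluster in 5E1 and 12.1 times in IgG. Cluster 21 had 353 CPM in 5E1 and 317 CPM in IgG, a ratio of 1.11 (1.01 to 1.22). Mesothelial-like cluster 17 had 78.5 and 139 CPM, 1.77-fold lower in 5E1 (1.42 to 2.23). Over all 16 clusters with enough UMIs, 13 ratios were under 1 and 3 above it, with the smooth muscle-like and pericyte-like clusters within 1.10-fold. The median of the 16 log2 ratios was -0.22, against -0.01 over all genes' pairs, for which ratios under 1 were not counted. After each cell was thinned to 1000 UMIs the log2 ratio in cluster 17 was -0.52, under 1.5-fold. Thinned cells with a Tgfb2 UMI made up 11.2% of cluster 23 in 5E1 and 19.3% in IgG, and 10.2% and 19.6% of cluster 12, against 25.4% and 25.2% of cluster 21 and 0.469% and 0.533% of B cell-like cells. Before thinning the shares were 36.2% and 63.2% in cluster 23, 52.4% and 76.4% in cluster 12, 65.1% and 69.6% in cluster 21, and 2.82% and 3.68% in cluster 4, at median depths of 6150.5 and 6034 UMIs in cluster 23 and 9402 and 9216 UMIs in cluster 12.

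Several other measures moved in the same clusters, and their part in these ratios was not tested. The summed level of 8 contractile genes was lower in 5E1 in all 3 myofibroblast-like clusters: 6684 CPM in 5E1 and 11486 CPM in IgG in cluster 23, 4805 and 9897 CPM in cluster 12, and 7124 and 14684 CPM in cluster 21, with 0 of 8 genes higher in any of them. All 10 immediate early genes of a fixed list were higher in 5E1 in the same clusters, with sums of 7379.8 and 3575 CPM in cluster 23 and 6732 and 3478 CPM in cluster 21. Neither shift was particular to these clusters. All 10 immediate early genes were also higher in clusters 13 and 19, among others, though their sum was lower in cluster 20. Contractile genes summed to 240.2 CPM in 5E1 and 614 CPM in IgG in B cell-like cluster 4, but were higher in 5E1 in smooth muscle-like clusters 16 and 22. Cells with an Xist UMI and no Y-linked UMI gave the same direction for Tgfb2, 87.6 CPM in 5E1 and 221 CPM in IgG in cluster 23 (2.52-fold lower, 1.92 to 3.37) and 140.3 and 239 CPM in cluster 12 (1.71-fold lower, 1.35 to 2.18). In cluster 21 these cells had 237 and 317 CPM of Tgfb2, a ratio of 0.748 (0.603 to 0.917), so the direction there turned. The 5E1 value there rests on 83 cells and 98 UMIs.

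**Figure D3:**
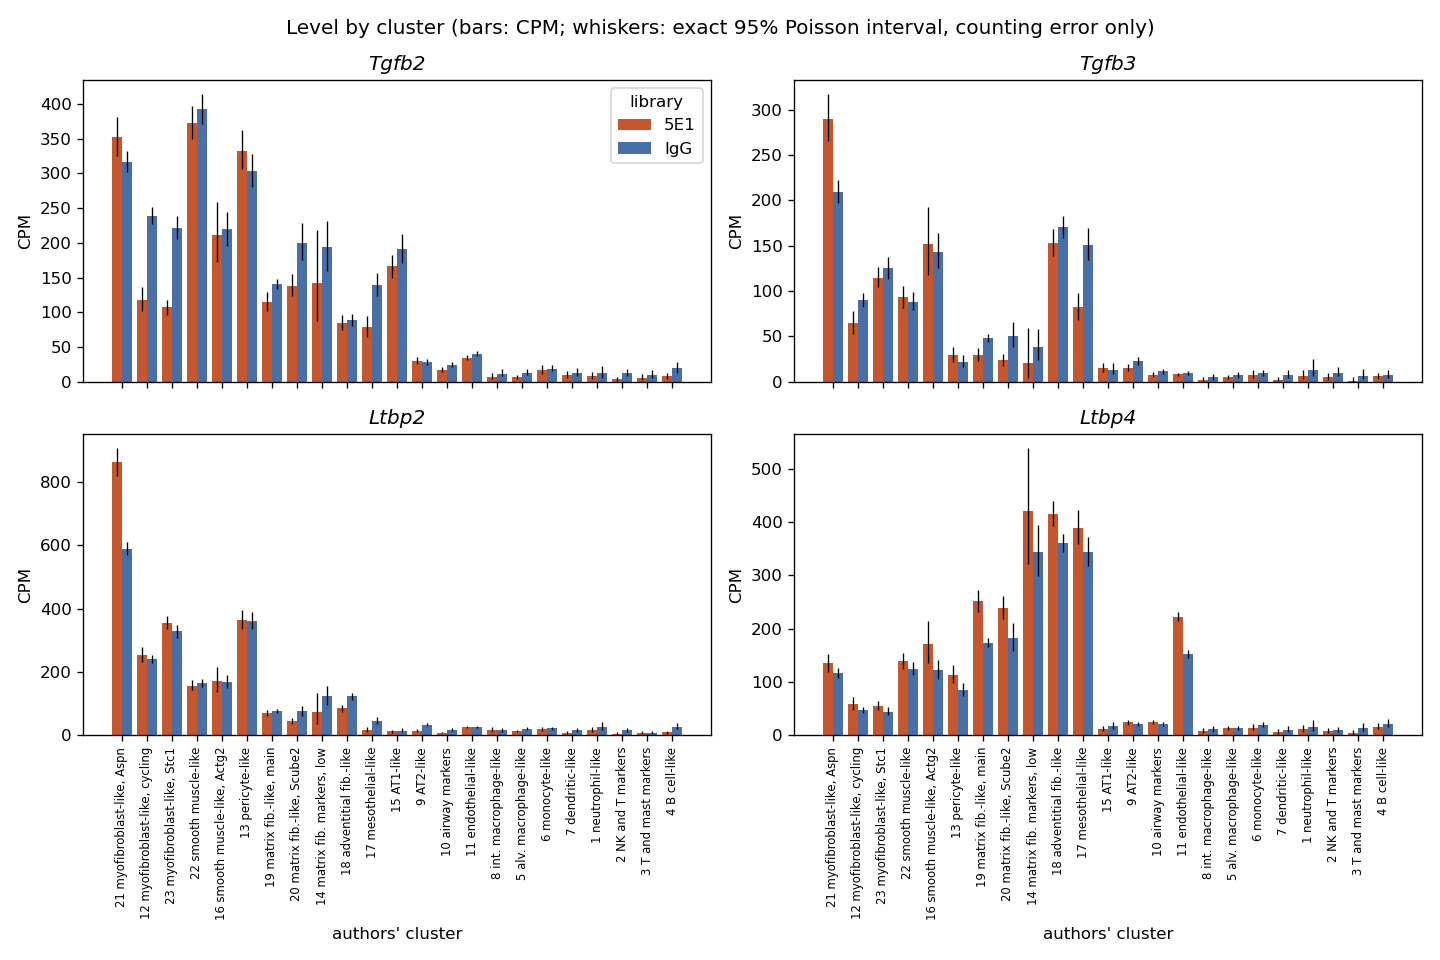
CPM of Tgfb2, Tgfb3, Ltbp2 and Ltbp4 in each of the 23 clusters, with 5E1 bars left of IgG bars and whiskers for the exact 95% Poisson interval. Tgfb2 is lower in 5E1 in clusters 12 and 23 (118 and 107 CPM, against 239 and 222 CPM in IgG), while Tgfb3 and Ltbp2 are higher in 5E1 in cluster 21 (290.2 and 862 CPM, against 209 and 589 CPM in IgG).

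Tgfb3 was lower in 5E1 in the mesothelium and in matrix fibroblasts, which include the lipid-storing fibroblasts of the septum, and higher in cluster 21. Mesothelial-like cluster 17 had 82.0 CPM in 5E1 (118 UMIs) and 151 CPM in IgG (284 UMIs), 1.84-fold lower (1.48 to 2.30). The main matrix fibroblast-like cluster 19 had 29.6 and 48.4 CPM (1.64-fold lower, 1.28 to 2.13), and the Scube2-rich cluster 20 had 23.4 and 50.5 CPM (2.15-fold lower, 1.45 to 3.21). Cluster 21 ran the other way with 290.2 CPM in 5E1 and 209 CPM in IgG, a ratio of 1.39 (1.25 to 1.55), which did not reach 1.5-fold. In cycling cluster 12 Tgfb3 was at 64.8 CPM in 5E1 and 89.6 CPM in IgG, 1.38-fold lower (1.12 to 1.72). After thinning, clusters 17 and 20 were no longer past 1.5-fold, with log2 ratios of -0.45 and -0.52. In cluster 23, where Tgfb2 was lower, Tgfb3 stood at 114 and 125 CPM (ratio 0.917, 0.795 to 1.06), and its share of the ligand UMIs was 43.5% in 5E1 and 30.3% in IgG. Tgfb2 made up 40.6% of the ligand UMIs of that cluster in 5E1 and 53.9% in IgG.

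With all cells, Tgfb1 ratios were within 1.20-fold where it was highest. The interstitial macrophage-like cluster had a ratio of 1.20 (1.08 to 1.32), and the monocyte-like, dendritic-like, alveolar macrophage-like and endothelial-like clusters had ratios between 0.959 and 1.09. In cells with an Xist UMI and no Y-linked UMI the alveolar macrophage-like cluster had 274 CPM in 5E1 and 358 CPM in IgG (ratio 0.765, 0.665 to 0.879), and the dendritic-like cluster 483 and 365 CPM (ratio 1.32, 1.11 to 1.57). The interstitial macrophage-like cluster then had a ratio of 1.05 (0.896 to 1.23). The pair past 1.5-fold was cluster 23, with 41.5 CPM in 5E1 and 65.0 CPM in IgG (1.57-fold lower, 1.26 to 1.95). In neutrophil-like cluster 1 the ratio was 0.750 (0.583 to 0.964), but 1 IgG cell with 128 UMIs of the megakaryocyte gene Itga2b and 200 of Pf4 held 47 of the 120 Tgfb1 UMIs. Without cells of at least 10 Itga2b UMIs, a limit set after this cell was seen, the levels were 120.3 CPM in 5E1 and 103 CPM in IgG and the ratio was 1.17 (0.873 to 1.57).

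With all cells, the signalling receptors had ratios on either side of 1 and none past 1.5-fold. Tgfbr1 ratios ran from 0.702 (0.519 to 0.949) in cluster 23, with 23.2 CPM in 5E1 and 33.0 CPM in IgG, up to 1.30 in AT2-like cluster 9, with 29.7 and 22.8 CPM. Ratios under 1 were not counted for all genes, whose pairs had a median log2 ratio of -0.01. Tgfbr2 had 16 of 21 ratios under 1, with a median log2 ratio of -0.17. It was at 30.8 CPM in 5E1 and 45.9 CPM in IgG in cluster 23 (1.49-fold lower, 1.15 to 1.93), at 89.5 and 127 CPM in cluster 18 (1.42-fold lower, 1.23 to 1.65) and at 72.9 and 103 CPM in cluster 19 (1.41-fold lower, 1.20 to 1.66). Monocyte-like cluster 6 had 41.4 and 29.9 CPM, a ratio of 1.38 (1.02 to 1.87), and mesothelial-like cluster 17 a ratio of 1.28 (1.01 to 1.62). In cells with an Xist UMI and no Y-linked UMI, Tgfbr2 passed 1.5-fold in cluster 23, at 23.5 CPM in 5E1 and 45.9 CPM in IgG (1.95-fold lower, 1.15 to 3.59), and in endothelial-like cluster 11, at 62.3 and 93.9 CPM (1.51-fold lower, 1.29 to 1.77). In cluster 21 these cells had 31.4 and 51.2 CPM (1.63-fold lower, 0.935 to 3.1), and in cluster 6 the ratio was 1.14 (0.555 to 2.13). Tgfbr1 in smooth muscle-like cluster 22 was at 14.5 CPM in 5E1 (10 UMIs) and 29.6 CPM in IgG in these cells, a ratio of 0.488 (0.227 to 0.936), against 1.08 with all cells.

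Tgfbr3 differed in opposite directions among fibroblasts. It was lower in 5E1 in cluster 12 (22.8 CPM in 5E1 and 36.7 CPM in IgG, 1.61-fold lower, 1.13 to 2.34) and in cluster 21 (36.5 and 54.8 CPM, lower by just over 1.5-fold, 1.14 to 2.01). It was higher in the main matrix fibroblast-like cluster 19, with 31.6 CPM in 5E1 (78 UMIs) and 19.5 CPM in IgG (180 UMIs), a ratio of 1.62 (1.23 to 2.13). Cells with an Xist UMI and no Y-linked UMI had ratios of 0.751 (0.413 to 1.27) in cluster 12, 0.795 (0.464 to 1.28) in cluster 21 and 1.53 (1.02 to 2.23) in cluster 19. After thinning, clusters 12 and 21 were no longer past 1.5-fold, with log2 ratios of -0.57 and -0.30, and cluster 21 was also under it with median-ratio scaling (-0.53) and with each cell weighted alike (-0.54).

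Ltbp2 had its largest absolute difference in cluster 21, with 862 CPM in 5E1 (1464 UMIs) and 589 CPM in IgG (3024 UMIs), a ratio of 1.46 (1.37 to 1.56). Xist-positive cells without a Y-linked UMI gave 846 and 589 CPM there, a ratio of 1.44 (1.28 to 1.61). Haemoglobin and other erythroid genes also differed in cluster 21, summing to 1788 CPM in 5E1 and 219 CPM in IgG, and their part in the ratio was not tested. In clusters 12 and 23 the Ltbp2 ratios were 1.05 (0.939 to 1.17) and 1.09 (0.999 to 1.18). Xist-positive cells without a Y-linked UMI had 177 CPM in 5E1 and 243 CPM in IgG in cluster 12, so the direction there turned (ratio 0.731, 0.588 to 0.899), and a ratio of 1.05 (0.901 to 1.21) in cluster 23. It was lower in Scube2-rich cluster 20, with 44.1 CPM in 5E1 and 75.7 CPM in IgG (1.72-fold lower, 1.27 to 2.33), but the log2 ratio there was -0.21 after thinning. The other 4 pairs past 1.5-fold, in clusters 5, 9, 10 and 17, had levels of 8.49 to 16.7 CPM in 5E1 and 18 to 45.7 CPM in IgG. All 4 were under 3 times the B cell-like level of their library, which was 9.11 CPM in 5E1 and 27.7 CPM in IgG, and the source of their UMIs was not tested. After thinning, the log2 ratio was -0.13 in cluster 5 and 0.59 in cluster 9, and with each cell weighted alike it was -0.43 in cluster 10.

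With all cells, Ltbp3 and Ltbp4 had ratios above 1 in most clusters. Their median log2 ratios were 0.31 and 0.30, against -0.01 over all genes' pairs. How many ratios and intervals lie above 1 was not counted for all genes. Ltbp4 ratios were above 1 in 14 of 15 clusters, and 8 of the intervals lay wholly above 1, led by endothelial-like cluster 11 (222 CPM in 5E1 and 152 CPM in IgG, ratio 1.46, 1.37 to 1.55) and matrix fibroblast-like cluster 19 (252 and 174 CPM, ratio 1.45, 1.32 to 1.59). Ltbp3 ratios were above 1 in 11 of 13 clusters, and 9 of the intervals lay wholly above 1. It passed 1.5-fold in Scube2-rich cluster 20, with 65.7 CPM in 5E1 (143 UMIs) and 41.5 CPM in IgG (46 UMIs), a ratio of 1.58 (1.13 to 2.26), and the log2 ratio was 0.13 after thinning. In this cluster erythroid genes summed to 1800.4 CPM in 5E1 and 196 CPM in IgG, and AT2 genes to 560.0 and 2674 CPM, and their part in the ratio was not tested. In cells with an Xist UMI and no Y-linked UMI some of these ratios turned: Ltbp4 was at 94 CPM in 5E1 and 126 CPM in IgG in smooth muscle-like cluster 22 (ratio 0.748, 0.567 to 0.973, against 1.12 with all cells) and had a ratio of 0.783 (0.471 to 1.23) in cluster 12. Ltbp3 in cluster 22 also turned, with a ratio of 0.897 (0.626 to 1.26) in these cells and a log2 ratio of 0.31 with all cells. In AT1-like cluster 15 Ltbp3 did not turn, being at 108 CPM in 5E1 and 122 CPM in IgG with all cells. There it was at 71.7 and 119.8 CPM in the cells with Xist and no Y-linked UMI (1.67-fold lower, 1.19 to 2.39). For Ltbp1, 6 of 8 ratios were above 1, with a median log2 ratio of 0.17, and 1 interval lay wholly above 1. The 2 ratios under 1 were those of the mesothelial-like cluster (0.912, 0.790 to 1.05) and smooth muscle-like cluster 22 (0.879, 0.718 to 1.07).

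Over whole libraries Tgfb2 and Tgfb3 were lower in 5E1 and Tgfb1 higher, in sums that also hold the difference in cell makeup. Tgfb2 was at 82.8 CPM in 5E1 and 124 CPM in IgG (1.5-fold lower, 1.45 to 1.55) and Tgfb3 at 39.9 and 59.5 CPM (1.49-fold lower, 1.42 to 1.57), while Tgfb1 was at 159 and 135 CPM (ratio 1.18, 1.14 to 1.21). With each of the 23 clusters given equal weight, Tgfb2 was 1.20-fold lower and Tgfb3 1.11-fold lower in 5E1, and the ratio was 1.01 for Tgfb1. Ltbp2 was at 91.2 CPM in 5E1 and 122 CPM in IgG (1.34-fold lower, 1.30 to 1.39), with a ratio of 1.03 when clusters weigh alike. Ltbp4 was at 121 and 107 CPM (ratio 1.14, 1.10 to 1.17), and at 1.21 with equal weights.

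The wider pathway was followed with 3 gene lists. Over all genes, 4.46% of pairs were at least 1.5-fold lower in 5E1 and 2.92% at least 1.5-fold higher. Genes of activation and matrix tethering (20 genes) passed 1.5-fold in 28 of 224 pairs as lower (12.5%) and in 12 as higher (5.36%), with a median log2 ratio of -0.03. Co-receptors and signal transducers (16 genes, among them the SMADs) passed in 4 of 208 pairs as lower (1.92%) and 3 as higher (1.44%), under the shares of all genes, with a median of 0.06. Known response genes (29 genes) passed in 101 of 439 pairs as lower (23%) and 39 as higher (8.88%), with a median of -0.09. Of the lower pairs of the response genes, 64 came from the 191 pairs outside the mesenchymal clusters (33.5%) and 37 from the 248 within them (14.9%). Of all genes' pairs, 3.47% were lower outside the mesenchymal clusters and 5.46% within them. Next, only pairs at 3 or more times the B cell-like level in at least 1 library were kept. The response genes then counted 24 lower (9.41%) and 26 higher (10.2%) of 255, and all genes 5.78% lower and 6.47% higher. A pair could enter through only the library where it was high. The bar also differed between libraries, the B cell-like level being 84.4 CPM in 5E1 and 196 CPM in IgG for Acta2, and 14.9 and 41.5 CPM for Actg2. The balance of lower and higher pairs among those kept is therefore not read as a result. Under the same filter the activation genes counted 7 lower (4.22%) and 12 higher (7.23%) of 166, and the 10 members 9 lower (11.5%) and 2 higher (2.56%) of 78. For Tgfb1 the bar is no measure of free RNA, as the B cell-like cluster had 289 CPM of it in 5E1 and 278 CPM in IgG. Its lower pair in cluster 23 (41.5 and 65.0 CPM) was left out of that count.

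**Figure D4:**
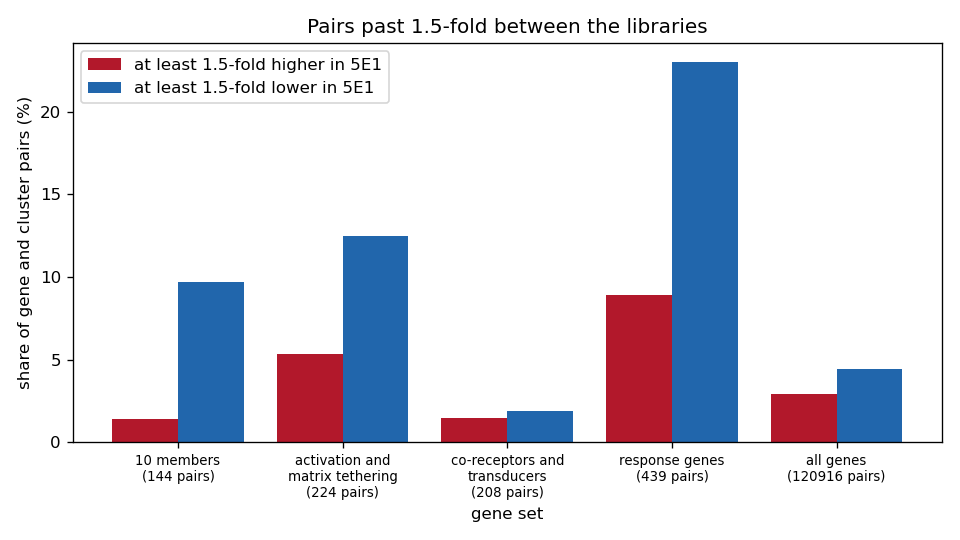
Share of gene and cluster pairs at least 1.5-fold higher (red) or lower (blue) in 5E1, for the 10 members, 3 pathway lists and all genes, over pairs with at least 100 UMIs. The members stand at 1.39% higher and 9.72% lower, the transducers at 1.44% and 1.92%, the response genes at 8.88% and 23%, and all genes at 2.92% and 4.46%.

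Response genes in the myofibroblast-like clusters included contractile or matrix genes that were lower, while the immediate early gene Junb was higher in each of them. In each of these clusters Junb was under 3 times the B cell-like level in both libraries. Immediate early genes summed to 3040.1 CPM in 5E1 and 3096 CPM in IgG in the B cell-like cluster itself. For Junb that level is therefore not taken as free RNA. In cluster 23, 7 of 27 measured response genes were lower and 4 higher, where 4.59% and 3.97% of all genes were, and the median log2 ratio was -0.27. Acta2, Tagln, Cnn1 and Actg2 are also contractile genes, whose summed levels are given above. The lower ones included Cnn1, a calponin of contractile cells (41.8 CPM in 5E1 and 141 CPM in IgG, 3.36-fold lower), the collagen crosslinker Loxl2 (122 and 277 CPM, 2.27-fold lower), and Tgfbi, a matrix protein named for its induction by TGF-beta (1497 and 2808 CPM, 1.88-fold lower). Those higher included Junb (1776 and 887 CPM, ratio 2.00) and Cyr61 (885 and 580.0 CPM, ratio 1.53). Eng, which encodes the co-receptor endoglin, was the 1 transducer past 1.5-fold in cluster 23, at 496 CPM in 5E1 and 308 CPM in IgG (ratio 1.61, 1.49 to 1.75).

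Cluster 12 had 8 of 27 response genes lower and 3 higher, where 7.94% and 2.70% of all genes were. Loxl2 was at 107 CPM in 5E1 and 269 CPM in IgG (2.50-fold lower) and Tgfbi at 1228 and 2784 CPM (2.27-fold lower). In cluster 21, 5 of 27 were lower and 2 higher, where 6.46% and 4.23% of all genes were, with Acta2, the smooth muscle actin, at 2329 and 5731 CPM (2.46-fold lower). Tgfbi was not among the genes past 1.5-fold there. Fbn2, a microfibril fibrillin to which latent complexes can be tethered, was higher in cluster 21 at 142 CPM in 5E1 and 69.2 CPM in IgG (ratio 2.06, 1.74 to 2.43).

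In both matrix fibroblast-like clusters Ctgf, Lox and Itgb5 were higher in 5E1. Some other genes ran as in at least 1 myofibroblast-like cluster. Junb was higher in cluster 19 (ratio 1.82) and Cnn1, Actg2 and Snai1 were lower, and Actg2, Tgfbi and Acta2 were lower in cluster 20. The response gene Cdkn1a was lower in cluster 19 (ratio 0.394) and cluster 20 (ratio 0.329). Among myofibroblast-like clusters it was lower in cluster 21 (ratio 0.506) but higher in cluster 12 (ratio 1.99). Of these, Junb, Cdkn1a, Cnn1 and Actg2 in cluster 19 were under 3 times the B cell-like level in both libraries. So were Cdkn1a, Actg2 and Tgfbi in cluster 20, and Cdkn1a in clusters 12 and 21. For Junb and Cdkn1a that level may be expression of the B cell-like cells themselves, which was not tested. The difference between clusters was not tested. Cluster 19 had 8 of 26 response genes higher and 4 lower, where 4.82% and 8.96% of all genes were, and a median log2 ratio of 0.20. Ctgf, a matricellular growth factor, was at 65.6 CPM in 5E1 and 21.3 CPM in IgG (ratio 3.08, 2.48 to 3.81), Lox, the elastin and collagen crosslinker, at 161 and 75.1 CPM (ratio 2.14), and Col1a1 at 2238 and 1412 CPM (ratio 1.59). Itgb5, an integrin subunit of a TGF-beta activating dimer that stands on both the response and the activation list, was at 76.1 and 32.2 CPM (ratio 2.37, 1.96 to 2.85). Cluster 20 had 3 of 20 higher and 4 lower, where 5.39% and 4.10% of all genes were, with Ctgf at 82.7 and 26.1 CPM (ratio 3.16), Lox at 135 and 82.0 CPM (ratio 1.65) and Itgb5 at 64.8 and 28.8 CPM (ratio 2.25). Tgm2, the transglutaminase that crosslinks LTBPs to matrix, was lower in both, at 16.2 CPM in 5E1 and 46.6 CPM in IgG in cluster 19 (2.87-fold lower) and 20.7 and 75.7 CPM in cluster 20 (3.66-fold lower). The mesothelial genes summed to 161 and 48.5 CPM in cluster 19 and to 198 and 74.8 CPM in cluster 20, and immediate early genes to 4274 and 2440.5 CPM and to 5866 and 6620.1 CPM, whose part in these ratios was not tested.

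Mesothelial-like cluster 17, where Tgfb2 and Tgfb3 were lower, had 5 of 18 response genes lower and 0 higher, where 3.41% and 2.96% of all genes were. Pmepa1, an inhibitor induced by TGF-beta signalling, was at 48.6 CPM in 5E1 and 86.1 CPM in IgG (1.77-fold lower, 1.33 to 2.38), and the others included Tgfbi at 41.0 and 82.4 CPM, and Acta2 at 60.4 and 147 CPM. Of the 5, Acta2, Tagln and Tgfbi were under 3 times the B cell-like level in both libraries, which was 84.4 CPM in 5E1 and 196 CPM in IgG for Acta2 and 44.6 and 47.4 CPM for Tgfbi, and their source was not tested. Of the activation list, 1 of 10 measured genes passed 1.5-fold there: Thbs1, an activator of latent TGF-beta, was at 35.4 CPM in 5E1 and 55.3 CPM in IgG (1.56-fold lower, 1.11 to 2.23). The 9 mesothelial markers summed to nearly equal levels there, 9864 CPM in 5E1 and 9895 CPM in IgG. AT2 genes summed to 1589 and 578 CPM and contractile genes to 734 and 1015 CPM in the same cluster, and their part was not tested. Endothelial-like cluster 11 had 4 of 28 response genes lower and 0 higher, where 2.92% and 1.60% of all genes were. Tgfbi was at 50.1 CPM in 5E1 and 75.7 CPM in IgG there (1.51-fold lower, 1.36 to 1.69), and contractile genes summed to 469.7 and 617 CPM. All 4 genes (Acta2, Actg2, Cnn1 and Tgfbi) were under 3 times the B cell-like level in both libraries, and the source of their UMIs was not tested.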

How the data were processed

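The files deposited for the 2 libraries give, for each barcode, whole-number UMI counts by gene, not normalized. Per the submitters' processing notes the authors used Cell Ranger 3.1.1 and the mm10 genome, and the matrix headers give software version 3.0.0. How reads were aligned and cells called is not stated in the sources at hand. A cell table deposited by the authors gives each kept cell its library and 1 of 23 clusters; its header is shifted by 1 column, so these columns were identified from their values.

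UMIs were summed per library and cluster and divided by the cluster's total (CPM). Ltbp4 has 2 feature IDs; the one used holds all its UMIs. Intervals are exact at 95% (Poisson for CPM, conditional binomial for ratios, Clopper-Pearson for shares) and cover counting error only. Log2 ratios add 0.5 UMI to each sum. Pairs needed 100 UMIs in both libraries together and were counted at 1.5-fold. For shares of cells each cell was thinned to 1000 UMIs and shallower cells left out. No doublet caller was run. Clusters were named from marker lists where at least 3 markers were detected; clusters 2, 3, 10 and 14 stayed unnamed. The genes and lists were chosen with earlier results of these data known. Of each list, at most 5 genes per direction and cluster were named, by size, and as genes of similar pattern the 3 with the highest r, leaving out predicted, ribosomal and mitochondrial genes. Code was tested on simulated counts. Python 3.11.15, numpy 2.4.6, scipy 1.17.1 and pandas 2.3.3 were used.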

Additional observations from a re-analysis of the deposited data

Results flagged for a closer look

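For 7 of the 10 genes the ratio of 5E1 to IgG was above 1 in 1 cluster and below 1 in another, each beyond counting error. The share of all genes that meet this rule was not counted, so the 7 are not read as a trait of these genes. With 1 library per group the difference between 2 clusters was not tested, and the pairs are the extremes of each gene. For Tgfb2, Tgfb3, Tgfbr3 and the Ltbp genes, clusters near the B cell-like level were left out first. For Tgfb1, Tgfbr1 and Tgfbr2 no cluster was left out on that ground. The Ltbp2 pairs of clusters 5, 9, 10 and 17, under 3 times that level in both libraries, were among those left out. On the log2 scale, Tgfb1 differed by 0.91 between interstitial macrophage-like cluster 8 (0.26) and Stc1-rich myofibroblast-like cluster 23 (-0.65), and in cells with Xist and no Y-linked UMI the ratio in cluster 8 was 1.05 (0.896 to 1.23). Tgfb2 differed by 1.20 between Aspn-rich myofibroblast-like cluster 21 (0.15) and cluster 23 (-1.05), but in cells with Xist and no Y-linked UMI the ratio in cluster 21 was 0.748 (0.603 to 0.917). Tgfb3 differed by 1.58 between cluster 21 (0.47) and Scube2-rich matrix fibroblast-like cluster 20 (-1.11), and Ltbp2 by 1.33 between the same clusters (0.55 and -0.78). Tgfbr1 differed by 0.89 between AT2-like cluster 9 (0.38) and cluster 23 (-0.51), with log2 ratios of 0.05 and -0.08 in cells thinned to 1000 UMIs. Tgfbr2 differed by 1.05 between monocyte-like cluster 6 (0.47) and cluster 23 (-0.58), and the ratio in cluster 6 was 1.14 (0.555 to 2.13) in cells with Xist and no Y-linked UMI. Tgfbr3 differed by 1.37 between main matrix fibroblast-like cluster 19 (0.70) and cycling myofibroblast-like cluster 12 (-0.67), where the ratio was 0.751 (0.413 to 1.27) in cells with Xist and no Y-linked UMI.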

How the results depend on the processing

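Of the 16 pairs past 1.5-fold, the same pairs remained past it in 15 cases with median-ratio scaling, 14 with each cell weighted alike, 7 with cells thinned to 1000 UMIs (not Tgfb2 in cluster 17, Tgfb3 in 17 and 20, Tgfbr3 in 12 and 21, Ltbp2 in 5, 9 and 20 or Ltbp3 in 20), 16 without the 5% of cells with most UMIs and 14 in cells with Xist and no Y-linked UMI. Pairs at least 1.5-fold higher in 5E1, 2 as reported, numbered 5 with median-ratio scaling, 5 with each cell weighted alike, 5 without the 5% of cells with most UMIs, 18 after thinning, 9 in cells with Xist and no Y-linked UMI, 1 with at least 200 UMIs and 0 at 2-fold. Pairs at least 1.5-fold lower, 14 as reported, numbered 30 in cells with Xist and no Y-linked UMI, 9 with at least 200 UMIs and 6 at 2-fold. Without the pairs of Tgfb2, Tgfb3, Tgfbr3 and the Ltbp genes near the B cell-like level, a choice made after seeing the data, 10 were lower, and without cells of at least 10 Itga2b UMIs 3 were higher and 14 lower. Pairs of a pathway gene and a cluster higher in 5E1, with genes on 2 lists counted once, numbered 50 as reported and 90 after thinning. Of these alternatives, pairs of all genes were counted only in cells with Xist and no Y-linked UMI (5.19% higher and 10.4% lower). Whether the counts under the other alternatives are particular to these genes was not tested. The log2 ratio of Ltbp2 in AT2-like cluster 9 turned to 0.59 after thinning, and the cause was not tested. Scaling moved all genes by over 0.1 (log2) only in cluster 14, by -0.21. No paired analysis was possible because each group has 1 library. Clusters 14 and 16 hold 67 and 84 cells in 5E1, which limits their precision most, and thinning leaves few UMIs per pair.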

Other observations

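Cells with megakaryocyte transcripts were scattered over clusters of other types. Itga2b, an integrin subunit of megakaryocytes and platelets, had at least 10 UMIs in 3 cells of 5E1 (1 in cluster 11 and 2 in cluster 14) and in 3 cells of IgG (1 in cluster 1 and 2 in cluster 16). The IgG cell in neutrophil-like cluster 1 had 40184 UMIs, of which 1 was of the neutrophil gene S100a8 and 105 of the platelet gene Treml1. It held 24 of the 27 Ltbp1 UMIs of that cluster, 88.9%, besides 47 of its 120 Tgfb1 UMIs, while 454 cells of the same cluster in 5E1 had 1 Ltbp1 UMI in all. In cluster 16 of IgG a cell with 645 UMIs of Ppbp and 643 of Pf4 held 20 of the 106 Tgfb1 UMIs. Without cells of at least 10 Itga2b UMIs, Tgfb1 in cluster 16 was at 51.4 CPM in 5E1 and 46.6 CPM in IgG, a ratio of 1.10 (0.656 to 1.79), against 51.4 and 71.6 CPM with them, and the Ltbp1 ratio there was 1.55 (1.08 to 2.21), past 1.5-fold.

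Of the genes that anchor or activate the latent complex outside the matrix, Nrros was found where Tgfb1 was, at 197 CPM in 5E1 and 217 CPM in IgG in monocyte-like cluster 6 and at 57.6 and 64.1 CPM in endothelial-like cluster 11. Lrrc32, which encodes the cell surface anchor GARP, was at 44.0 and 42.4 CPM in smooth muscle-like cluster 22 and at 31.1 and 27.0 CPM in cluster 11. Itgb6, the subunit of an epithelial integrin that activates TGF-beta, was at 143 CPM in 5E1 and 136 CPM in IgG in AT1-like cluster 15.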
